A study of Mus musculus with 4 samples.

Results

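The genes described here are the nuclear encoded subunits of the mitochondrial respiratory chain and ATP synthase, with the assembly factors that carry the same symbol prefixes. They were the rows of the expression table whose symbol starts with Ndufa, Ndufb, Ndufc, Ndufs, Ndufv, Sdha to Sdhd, Uqcr, Cox4, Cox5, Cox6, Cox7, Cox8 or Atp5. The muscle and fat isoforms Cox6a2, Cox7a1 and Cox8b and the row with -ps in its symbol were left out, and at least 50 unique molecular identifiers (UMIs) over the 4 count tables were required. Of the 32285 genes in the tables, 98 matched the prefixes and 92 were kept. They comprise 36 genes of complex I, 4 of complex II, 8 of complex III, 15 of complex IV, 17 of complex V and 12 assembly factors (Ndufaf and Sdhaf). Cox7b2 had 8 UMIs in all and Cox8c had 0, so both stayed under the minimum. Every one of the 92 genes had at least 500 UMIs, and all 92 passed the low count filter of each test.

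Visium spatial transcriptomes were analyzed from the lungs of 4 C57BL/6J mice, 1 section from each of a non-vaped (NV) male, an NV female, a vaped (V) male and a V female. V mice received whole-body exposure to the aerosol of a JUUL pen filled with a Peach Ice flavored juice of vegetable glycerin and propylene glycol, and NV mice served as unexposed controls. Exposure was started at 6 to 8 weeks of age and lasted 4 hours a day on 5 days a week for 9 weeks. A Visium spot captures the RNA of several neighbouring cells, so every value is a mixture over cell types. Because each group holds 1 male and 1 female and nothing else repeats them, a p value for V against NV measures the spread between these sections.

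The sections held between 473 (NV female) and 2053 spots (V female) and between 6957392 and 34308556 UMIs. Spots were divided into zones by marker genes, none of which is a respiratory chain gene. Spots at or above 50% of the pooled level of alveolar markers such as Sftpc and Hopx were called parenchyma, and the remaining spots at 2 times or more the pooled level of cardiac muscle or adipocyte markers were called cardiac muscle rich or adipocyte rich. All others were called other hilar spots. Parenchyma held 684 (male) and 348 (female) NV spots and 1564 (male) and 1620 (female) V spots. Cardiac muscle rich spots numbered 138 and 47 in NV (male, female) and 133 in the V female, and adipocyte rich spots numbered 51 and 192 (NV female, V female). The 15 adipocyte rich spots of the NV male were under the minimum of 20 and were not used. The V male section had none of either kind, so its values come from parenchyma alone. Cardiac muscle markers were found in the sections labelled lung at levels that differed sharply. Over 10 such markers parenchyma held 7904 and 5652 counts per 1000000 UMIs of the zone (CPM) in NV (male, female) and 4734 for the V female, against 24.2 for the V male.

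Complexes I to IV pass electrons from NADH and succinate to oxygen. Complexes I, III and IV pump protons out of the mitochondrial matrix, and complex V, the ATP synthase, lets the protons back to make ATP. Most subunits are encoded in the nucleus and imported, while a small set is encoded by mitochondrial DNA. Heart muscle and thermogenic fat are known for dense mitochondria, and several complex IV subunits exist as isoform pairs, of which one is typical of contractile muscle or brown fat and the other is found widely. In lung, Cox4i2 is known as an isoform used by pulmonary vascular smooth muscle and pericytes.

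Of the 92 genes, 91 had a position in the GRCm38 annotation used (GENCODE vM21), on 19 chromosomes, so they do not form 1 cluster in the genome. Atp5md had no position there. RefSeq promoter windows on GRCm38.p6, running from 250 bases before to 50 after a gene start, were matched by symbol for 76 genes, and 4 motifs were searched on both strands. GCGCANGCG (NRF1) was in 30.9% of the windows of respiratory chain genes and in 8.58% of the 21263 windows of all protein coding genes. CCGGAAG (GABPA) was in 27.2% against 11.6%, AAGATGGC (YY1) in 12.3% against 3.05%, and TCAAGGTCA (ERR) in 2.47% against 0.334%. At least 1 of the 4 motifs was present in 46 of the 76 genes, and 7 genes had both the NRF1 and the GABPA letters. These matches describe the sequence and are not binding sites. Genes for which no promoter entry was used include Uqcrc2, Ndufa4l2, Ndufb9, Cox4i1, Uqcrq, Uqcrb, Atp5mpl, Atp5a1, Ndufa2, Cox6c, Cox4i2, Atp5f1, Sdhc, Ndufs1 and Ndufaf6.

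Promoter stretches are printed for 3 genes that part from the rest of their complex in the values that follow. Cox6a1 encodes the widespread isoform of a complex IV subunit (ENSMUSG00000041697, chr5:115345642-115348981, minus strand), and Atp5g1 (ENSMUSG00000006057, chr11:96068852-96075670, minus strand) and Atp5g3 (ENSMUSG00000018770, chr2:73908447-73911326, minus strand) encode the same proton carrying c subunit of ATP synthase. Each stretch is shown 5′ to 3′ on the strand of the gene, and covers the bases upstream of the annotated gene at chr5:115348982-115349208, chr11:96075671-96075881 and chr2:73911327-73911576. Capitals mark the NRF1 letters for Cox6a1, where overlapping matches on both strands start 162 and 161 bases before the RefSeq start and another 117 bases before it, and the ERR letters 52 bases before it for Atp5g3, which lie on the opposite strand.
Cox6a1: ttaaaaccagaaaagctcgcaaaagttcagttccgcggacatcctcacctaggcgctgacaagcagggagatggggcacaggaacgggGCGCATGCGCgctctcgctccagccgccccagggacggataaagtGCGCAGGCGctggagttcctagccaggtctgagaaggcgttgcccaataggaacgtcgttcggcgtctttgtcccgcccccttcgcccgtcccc
Atp5g1: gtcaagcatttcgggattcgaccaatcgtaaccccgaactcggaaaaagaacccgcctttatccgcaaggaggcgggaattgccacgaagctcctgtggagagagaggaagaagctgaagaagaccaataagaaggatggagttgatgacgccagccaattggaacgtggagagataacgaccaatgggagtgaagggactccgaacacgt
Atp5g3: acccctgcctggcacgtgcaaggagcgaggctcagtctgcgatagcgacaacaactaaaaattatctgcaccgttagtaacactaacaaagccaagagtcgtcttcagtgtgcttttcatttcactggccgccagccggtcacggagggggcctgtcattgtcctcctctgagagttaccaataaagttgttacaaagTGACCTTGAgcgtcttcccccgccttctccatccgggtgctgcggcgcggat
The Atp5g1 window held none of the 4 motifs. The full windows of Cox6a1 and Atp5g3 also held, outside the stretches shown, the GABPA letters 16 bases before and the NRF1 letters 13 bases after the start, respectively.

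The respiratory chain genes were highest where heart muscle or fat cells were captured. Over the 80 subunit genes of complexes I to V, parenchyma held 23364 (male) and 24378 CPM (female) in NV against 16688 (male) and 30584 CPM (female) in V. Cardiac muscle rich spots held 67429 (male) and 79199 CPM (female) in NV and 71530 for the V female, and adipocyte rich spots held 49597 for the NV female and 85967 for the V female. Every cardiac muscle rich and adipocyte rich sum lay above every parenchyma sum. Within a section, cardiac muscle rich spots stood at 2.89, 3.25 and 2.34 times their own parenchyma for NV (male, female) and the V female. Other hilar spots were close to parenchyma, at 1.08 times for NV and 1.13 times for V (females). In a spot, fewer cells of a type and less RNA per cell cannot be told apart.

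**Figure D1:**
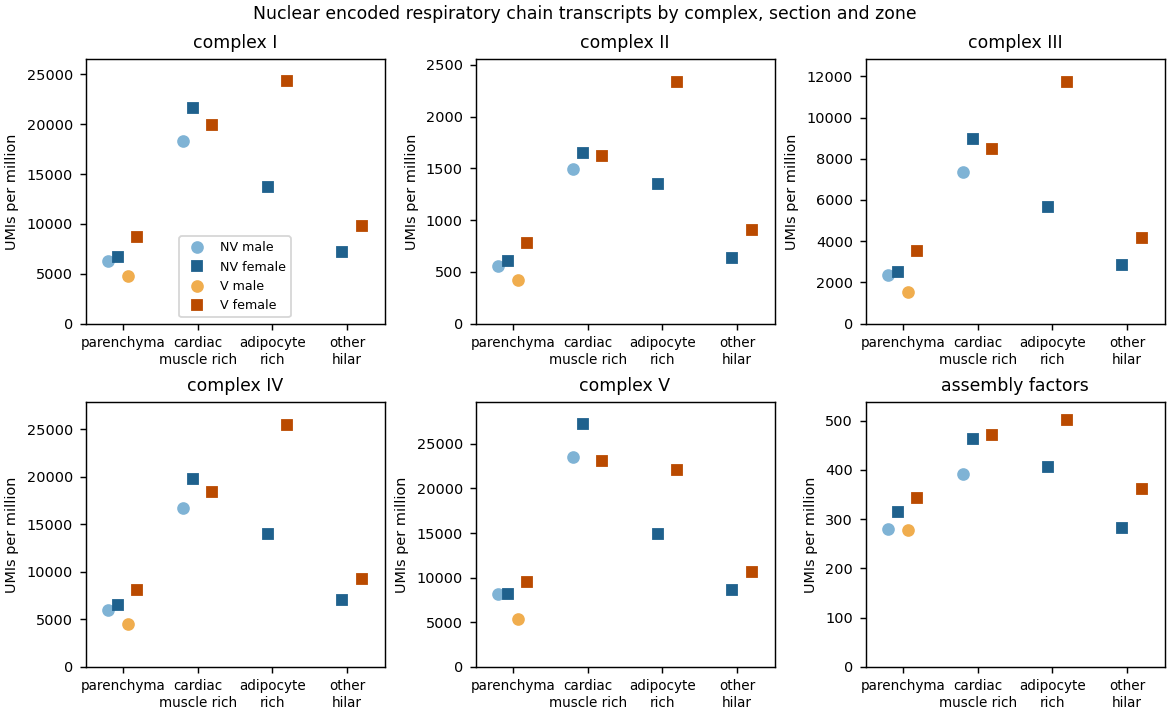
Summed level of the nuclear encoded genes of each complex, in CPM of the section and zone (linear axes from 0), 1 point for each section and zone with at least 20 spots. Cardiac muscle rich spots lie above parenchyma in every section that has them, and in adipocyte rich spots the V female (complex I 24304) lies above the NV female (13725). The V male has parenchyma only.

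The levels rose in cardiac muscle rich spots in all 5 complexes. In a model over 10 section and zone sums of 3 sections, with the section as a term (edgeR quasi-likelihood test, Benjamini-Hochberg adjustment), 86 of the 92 genes rose and 2 fell against parenchyma, where 20.3% of the 13915 genes tested were called higher and 18.7% lower. The median log2 fold change was 1.95 over the 92 genes and -0.05 over all genes tested. All 36 genes of complex I, all 4 of complex II, all 8 of complex III and all 17 of complex V rose, with medians of 1.97, 1.85, 2.11 and 2.06. In complex IV 11 of 15 genes rose, and 10 of 12 assembly factors rose by a smaller median of 1.17. The trimmed mean (TMM) scaling centres this comparison on the median gene, and without it the median of all genes moved to -0.58 and that of the 92 genes to 1.41, with 81 called higher and 3 lower. The split over all genes tested, 2831 higher and 2598 lower with TMM, became 1552 and 7267 without it.

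Atp5g1 rose the most. It held 345 and 297 CPM (NV male, NV female) and 247 CPM (V female) in parenchyma, and 1454 and 1845 CPM (NV) and 1395 CPM (V) in the cardiac muscle rich spots of those sections. The 2 sets of values did not overlap, and the fitted difference was 7.64-fold (log2 2.93, SE 0.191, adjusted p = 4.27e-09 by edgeR). Its paralogs Atp5g2 and Atp5g3, which encode the same mature c subunit, rose by log2 1.29 and 1.90. Reads from any stretch that these paralogs, or processed pseudogenes of them, share may not be counted for the right gene, so their separate values are uncertain.

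Among the genes of complex I, Ndufa5, an accessory subunit of the matrix arm, rose from 167 and 176 CPM (NV male, NV female) and 219 CPM (V female) in parenchyma to 800, 959 and 796 CPM in cardiac muscle rich spots (log2 2.76, SE 0.236, adjusted p = 1.17e-07 by edgeR). The core subunits that carry the flavin and the iron-sulfur clusters moved near the median of the complex, with log2 1.98 for Ndufv1 and 1.99 for Ndufs1. In complex II, Sdhb, the iron-sulfur subunit, rose by log2 2.46 and Sdha, the flavin subunit, by 1.41. Sdhc and Sdhd, the membrane anchors, rose by 1.59 and 2.11. In complex III, Uqcrfs1, the Rieske iron-sulfur protein, rose by 2.25, while the core proteins Uqcrc1 and Uqcrc2 rose by 1.99 and 1.91. In complex IV, Cox7c rose by 2.51, Ndufa4 by 2.42, Cox5a by 2.33, Cox5b by 2.32 and the widespread Cox4i1 by 1.96.

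Cox4i2 went the other way. It held 82.6 and 80.9 CPM (NV male, NV female) and 113 CPM (V female) in parenchyma, and 28.6, 23.4 and 30.1 CPM in the cardiac muscle rich spots of those sections. Every cardiac muscle rich value was below every parenchyma value, and the fitted level was 2.39-fold lower (log2 -1.26, SE 0.180, adjusted p = 3.31e-05 by edgeR). Cox6b2, an isoform best known from testis, was the other gene that fell (log2 -1.01, adjusted p = 0.000248 by edgeR), from 41.0, 42.2 and 35.6 CPM to 13.5, 10.1 and 15.2. Ndufa4l2, a paralog of Ndufa4 known to be induced by low oxygen, was at log2 0.02, and at -0.51 without TMM. Cox6a1 (0.32), Sdhaf2 (0.38) and Sdhaf3 (0.65) were not called either, and without TMM the values of Cox6a1 and Sdhaf2 turned to -0.22 and -0.14. Cox8a, at 0.87, and Cox7a2l, at 0.67, were called with TMM and not without it (0.33 and 0.13).

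Adipocyte rich spots showed a similar rise in the respiratory chain genes, and a few members behaved differently from cardiac muscle rich spots. Of the 92 genes, 87 rose and 3 fell against parenchyma (edgeR, same model), where 17.8% of all genes tested were called higher and 16.1% lower. The median log2 fold change was 1.66 over the 92 genes and -0.06 over all genes tested. All 36 genes of complex I, 4 of complex II and 8 of complex III rose, with medians of 1.72, 1.88 and 1.96. In complex IV 11 rose and 3 fell, in complex V 16 of 17 rose with a median of 1.45, and all 12 assembly factors rose with a median of 1.03. Without TMM the median of all genes moved to -0.54, 83 of the 92 were higher and 3 lower, and the split over all genes moved from 2477 higher and 2246 lower to 1411 and 6105.

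The membrane anchor Sdhd rose the most in adipocyte rich spots. It held 66.3 and 81.7 CPM in female parenchyma (NV, V) and 225 and 421 CPM in the adipocyte rich spots of both females (6.07-fold, log2 2.60, SE 0.216, adjusted p = 1.49e-07 by edgeR). Both adipocyte rich values were above all parenchyma values. Ndufab1, the mitochondrial acyl carrier protein and also a complex I subunit, rose by log2 2.26, Ndufb9 by 2.21, Uqcrq by 2.20 and Ndufa1 by 2.19. Cox4i2 fell here too, from 80.9 and 113 CPM to 11.4 and 29.4 (females, 3.08-fold lower, log2 -1.62, SE 0.211, adjusted p = 1.70e-05 by edgeR). Cox6b2 and Ndufa4l2 fell by 0.71 and 0.69 on the log2 scale, and Cox6b2 was not called with DESeq2 (-0.68, adjusted p = 0.0827) or with zones from clusters (-0.60, adjusted p = 0.0528 by edgeR). Atp5g1 (0.50) and Cox7a2l (0.40) were not called by edgeR, whereas DESeq2 called Atp5g1 higher (0.57, adjusted p = 0.0120). Cox7a2l was at -0.06 without TMM and was called at 0.67 without the NV female (adjusted p = 0.000541 by edgeR).

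**Figure D2:**
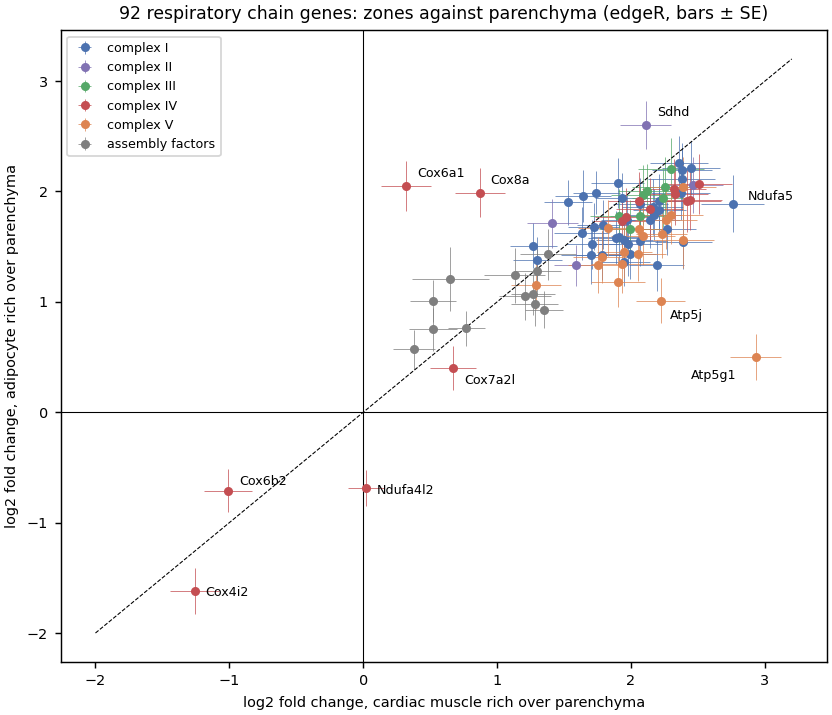
Fitted log2 fold change of each of the 92 genes in cardiac muscle rich spots (horizontal axis) and in adipocyte rich spots (vertical axis) over parenchyma, with standard errors as bars, colors for complexes and a dashed line where both are equal. Both axes share the same parenchyma sums, so the agreement along the line is not independent. Atp5g1 lies far below the line (2.93 and 0.50), Cox6a1 above it (0.32 and 2.05), and Cox4i2 below 0 on both axes (-1.26 and -1.62).

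Contrasting the 2 zones directly, 2 of the 92 genes were higher and 8 lower in adipocyte rich than in cardiac muscle rich spots (edgeR), where 8.14% of all genes tested were called higher and 8.47% lower. This contrast was chosen after the zone values were seen. Atp5g1 was 5.41-fold lower in adipocyte rich spots (log2 -2.43, adjusted p = 6.37e-07 by edgeR). It was followed by Atp5j, a stalk subunit of ATP synthase (-1.21), Ndufa5 (-0.87), Ndufa11 (-0.87), Ndufa13 (-0.86), Atp5o (-0.83), Atp5g3 (-0.72) and Ndufa4l2 (-0.71). Cox6a1 and Cox8a were higher, by 1.73 and 1.12. The median over the 92 genes was -0.29, and all 17 complex V genes had a negative value (median -0.51), of which 4 were called. The count rests on single sections. It was 6 without the NV male, where 1785 of 13787 genes tested were called, 23 (19 higher and 4 lower) without the NV female, where 3041 of 14943 were, and 66 (2 higher and 64 lower) without the V female, where 1801 of 12818 were. Atp5g1, Atp5j, Cox6a1 and Cox8a were called in every alternative run. The calls of Ndufa5, Ndufa11, Ndufa13, Atp5g3 and Ndufa4l2 were lost in 2 or more alternatives, and Ndufa5 was at -0.15 without the NV female.

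Other hilar spots, which include airway, differed little from parenchyma in these genes. None of the 92 genes was higher and 2 were lower (edgeR), with 5 of the 92 at an unadjusted p under 0.05, and DESeq2 gave the same counts of 0 and 2. Of all genes tested, 7.77% were called higher and 5.30% lower. The 2 lower genes were Cox4i2, with 14.1 and 27.2 CPM (NV and V females) (log2 -2.01), and Ndufa4l2, with 24.7 and 26.1 CPM (-1.02). The values of the NV female rest on 4 UMIs for Cox4i2 and 7 for Ndufa4l2. The median over the 92 genes was 0.21. This count depended on how the zone was drawn, because with muscle and fat zones defined at 4 times the pooled marker level, many of their spots joined the other hilar zone, and 84 of the 92 genes were higher and 3 lower, where 2380 and 1601 of 13230 genes tested were.

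The isoform composition of complex IV and of the ATP synthase c subunit differed between zones. Shares are of the UMIs of the named genes, counted from transcript ends without scaling for length. Cox6a1 made up 41.1% and 51.8% of Cox6a1 and Cox6a2 together in NV parenchyma (male, female), and 92.5% and 71.8% in V parenchyma. In cardiac muscle rich spots its share was 8.25% and 10.3% in NV (male, female) and 24.1% in V (female), and in adipocyte rich spots it was 71.4% in NV and 91.5% in V (females). All cardiac muscle rich shares were thus below all others. The muscle form Cox6a2 was called higher in cardiac muscle rich spots (log2 3.38) and not in adipocyte rich spots (0.36, adjusted p = 0.271 by edgeR). Of the 3 muscle and fat isoforms, Cox7a1 and Cox8b rose in both zones, by log2 3.56 and 3.17 in cardiac muscle rich and by 2.09 and 3.02 in adipocyte rich spots.

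Cox7a2 and Cox8a also had their lowest shares, against their muscle and fat partners Cox7a1 and Cox8b, in cardiac muscle rich spots. Cox7a2 made up 62.6% and 69.0% of its pair in NV parenchyma (male, female) and 98.8% and 61.2% in V parenchyma, 37.7%, 37.5% and 39.7% in cardiac muscle rich spots, and 75.1% (NV) and 46.7% (V) in adipocyte rich spots. Cox8a made up 72.9%, 77.4%, 98.1% and 60.6% in parenchyma (in the same order), 30.7%, 34.1% and 38.2% in cardiac muscle rich spots, and 64.1% and 44.9% in adipocyte rich spots. The V male was the section in which the widespread forms made up nearly all of each pair, and it is also the section whose parenchyma held 24.2 CPM of cardiac muscle markers.

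Cox4i2 made up 8.48% and 8.59% of Cox4i1 and Cox4i2 in NV parenchyma (male, female) and 15.4% and 9.33% in V parenchyma, and between 0.566% and 2.19% in every other zone. Atp5g1 made up 29.8% and 28.1% of the 3 Atp5g genes in NV and 16.0% and 25.7% in V parenchyma, 44.6%, 50.5% and 48.0% in cardiac muscle rich spots, and 21.9% and 17.5% in adipocyte rich spots. Ndufa4l2 made up 5.87% to 9.01% of Ndufa4 and Ndufa4l2 in parenchyma and 1.08% to 1.65% in cardiac muscle rich spots.

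**Figure D3:**
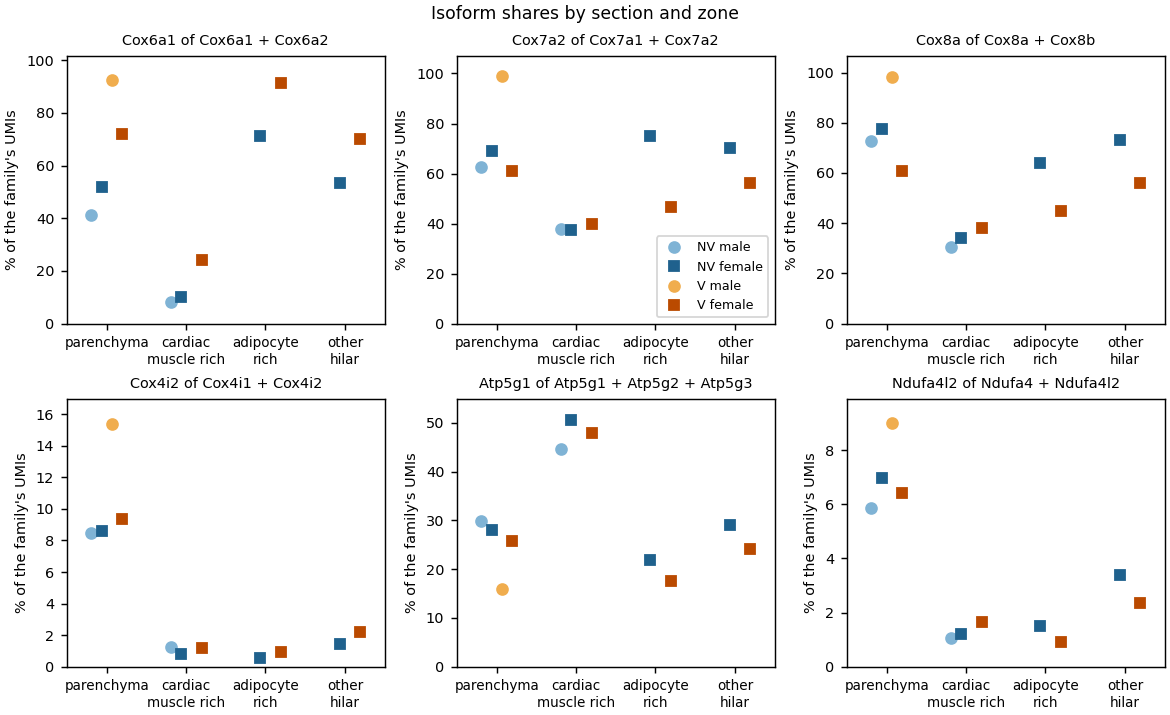
Share of 1 isoform in the UMIs of its family, in percent (linear axes from 0), for each section and zone with at least 20 spots. The share of Cox6a1 is lowest in cardiac muscle rich spots (8.25% to 24.1%), that of Atp5g1 is highest there (44.6% to 50.5%), and that of Cox4i2 is highest in the parenchyma of the V male (15.4%).

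Vaping was then compared with no vaping in parenchyma, the zone that all 4 sections share, to ask whether exposure shifts the respiratory chain genes of the gas exchange tissue. The V male held the lowest and the V female the highest level in each of complexes I to V, so that the V sections enclosed the NV sections. Complex I held 6249 and 6671 CPM in NV (male, female) and 4817 and 8698 CPM in V (male, female). In the same order complex II held 557 and 607 against 422 and 778, and complex III 2361 and 2486 against 1540 and 3506. Complex IV held 5997 and 6495 against 4528 and 8126, and complex V 8200 and 8119 against 5381 and 9477. The assembly factors, at 280 and 315 against 278 and 343, differed less.

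In means, complexes I to V stood at 23871 ± 717 CPM in NV and 23636 ± 9827 in V (SD, n = 2 sections each), and 0.33 is the smallest two-sided p that an exact permutation test allows for 2 sections against 2. The spread between the V male and the V female was larger than any difference between the group means. For the single complexes the NV and V means were 6460 ± 298 and 6757 ± 2744 for complex I, 582 ± 35.5 and 600 ± 252 for complex II, and 2423 ± 88.3 and 2523 ± 1391 for complex III. They were 6246 ± 352 and 6327 ± 2544 for complex IV and 8159 ± 57.0 and 7429 ± 2896 for complex V (CPM ± SD, n = 2 sections each).

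Within males, the V section was lower by log2 -0.38 in complex I, -0.40 in II, -0.62 in III, -0.41 in IV and -0.61 in V. Within females, the V section was higher by 0.38, 0.36, 0.50, 0.32 and 0.22. Of the 92 genes, 76 had a V male value below the NV male and a V female value above the NV female, a pattern shown by 20.2% of the 14348 genes tested. They were 34 of 36 genes of complex I, all of complexes II and III, 11 of 15 of complex IV, 14 of 17 of complex V and 5 of 12 assembly factors. With 1 section for each sex and group, the difference between the sexes could not be tested, and sex, animal and section cannot be told apart.

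**Figure D4:**
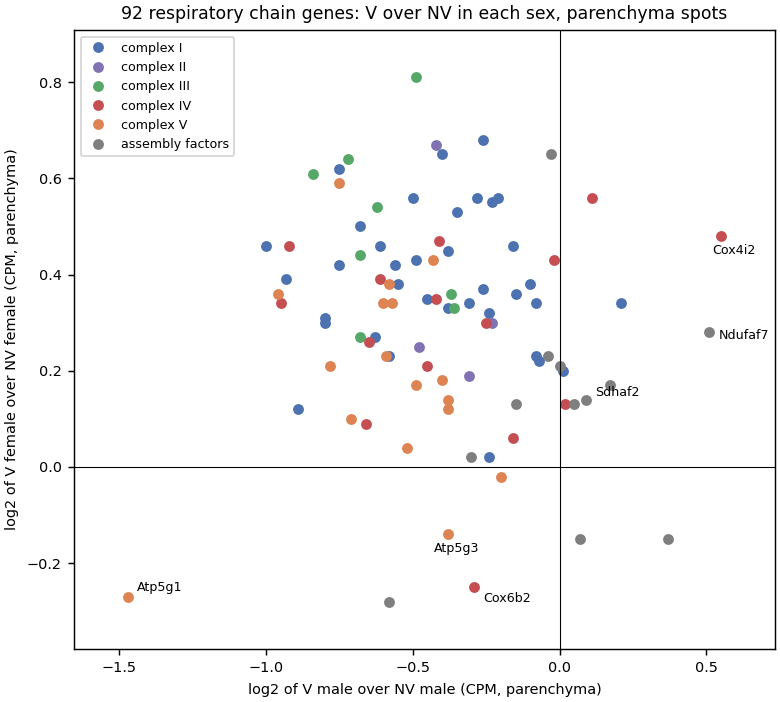
Log2 ratio of V over NV in parenchyma CPM, males on the horizontal and females on the vertical axis, 1 point for each of the 92 genes colored by complex. Of these, 76 lie in the upper left, lower in the V male and higher in the V female, and the named genes are those whose V sections both lay above or both below the NV sections.

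No respiratory chain gene was called between V and NV in parenchyma. With edgeR 0 of the 92 genes and 0 of the 14348 genes tested (0%) passed, 1 of the 92 and 380 of all genes had an unadjusted p under 0.05, and DESeq2 called 0 of the 92 and 10 of all genes. The median log2 fold change was 0.06 over the 92 genes and 0.01 over all genes tested. The groups overlapped in 86 of the 92 genes. Both V sections were above both NV sections in Cox4i2, Ndufaf7 and Sdhaf2, and both were below in Atp5g1, Atp5g3 and Cox6b2, whereas 14.4% and 17.1% of all genes tested showed these orders.

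Cox4i2 held 82.6 and 80.9 CPM in NV (male, female) and 121 and 113 CPM in V (male, female). Its V values did not overlap its NV values, at 117 ± 5.60 against 81.8 ± 1.19 CPM (SD, n = 2 sections each), and the sexes moved alike. The fitted log2 fold change was 0.53 (SE 0.144), with an unadjusted p of 0.0137 and an adjusted p of 0.999 by edgeR, so the difference did not pass. It is 1 of the genes that fell in both muscle and fat zones. Over 4 equal bins of parenchyma spots from low to high muscle and fat markers it went from 89.3 to 56.9 CPM for the NV male and from 86.1 to 61.4 for the NV female. For the V female it was at 111, 118, 124 and 97.1, lowest in the last bin only, and for the V male it stayed between 118 and 123. In parenchyma spots in the lower part of their own section for these markers, an alternative chosen after the data were seen, its log2 fold change was 0.44.

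Atp5g1 was at the other end. It held 345 and 297 CPM in NV (male, female) and 125 and 247 CPM in V (male, female), 321 ± 33.7 against 186 ± 86.7 in means (SD, n = 2 sections each). Both V values were below both NV values, with a log2 fold change of -0.77 (SE 0.370, adjusted p = 0.999 by edgeR). Its highest level was in cardiac muscle rich spots, and the cardiac muscle markers in parenchyma were likewise lower in V (24.2 and 4734 CPM) than in NV (7904 and 5652 CPM). Their part in the result was not tested. Atp5g3 held 525 and 464 CPM in NV and 403 and 422 in V (log2 -0.25), and Cox6b2 held 41.0 and 42.2 in NV and 33.6 and 35.6 in V (-0.26).

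The other genes at the ends of the ranking had overlapping groups or small levels. Ndufaf7, an assembly factor for complex I, held 15.9 and 19.9 CPM in NV and 22.7 and 24.2 in V (log2 0.41). Cox6a1 held 405 and 505 CPM in NV and 437 and 743 in V (0.40), Uqcrc1 163 and 171 in NV and 115 and 301 in V (0.34), and Ndufv1 127 and 133 in NV and 106 and 213 in V (0.32). Sdhaf4, an assembly factor for complex II, held 34.7 and 42.7 in NV and 23.2 and 35.1 in V (-0.38), and Ndufs1 99.0 and 102 in NV and 53.5 and 111 in V (-0.27). For Atp5b, the catalytic beta subunit of ATP synthase, the values were 1012 and 1032 in NV and 521 and 1329 in V (-0.12).

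Which V section was used decided the outcome. Without the V male, 7 of the 92 genes were called, all higher in V, with a median of 0.41, where 291 of 14373 genes tested were called. Without the V female, 33 were called, 1 higher and 32 lower, with a median of -0.47, where 1483 of 14154 genes tested were called. Among them Atp5g1 moved to -1.38 (adjusted p = 4.87e-09 by edgeR). With 1 V section left, its spread is assumed to be that of the NV sections. Beside the marker values given above, the median spot of the V male parenchyma had 6260 UMIs, against 9848 and 9518 in NV (male, female) and 9046 for the V female. Mitochondrially encoded UMIs were 7.89% and 5.45% of the parenchyma UMIs in NV (male, female) and 5.10% and 6.12% in V, and adipocyte markers held 443 and 1570 CPM against 67.6 and 1589. All 10 cardiac muscle markers had UMIs in every section, and of the 12 adipocyte markers 1 was at 0 for the NV male and 2 for the V male. Club cell markers, which show how much airway the zone holds, were at 11257 and 1247 CPM in NV and 287 and 9368 CPM in V. Their part in the sex difference was not tested.

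Within the parenchyma of each section, spots were ranked by their cardiac muscle and adipocyte markers and divided into 4 bins of equal size. Between the lowest and the highest bin the 80 subunit genes went from 21729 to 27208 CPM for the NV male, from 23029 to 27491 for the NV female and from 28056 to 35479 for the V female. For the V male, where the lower 2 bins had no such marker UMI and their order is arbitrary, they went from 16526 to 16589 CPM. The order of the sections was the same in each bin, with the V male lowest, the V female highest and the NV sections between them. The bins are ranks within a section and are not matched between sections in marker level. Cardiac muscle markers held 6064 CPM in the lowest bin of the NV male and 3922 in bin 3 of the V female. In the bins of the V male they held 0 to 44.7 CPM. In the parenchyma spots in the lower part of their own section for these markers, 0 of the 92 genes were called between V and NV by edgeR, with 1 at an unadjusted p under 0.05 and a median of 0.07.

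**Figure D5:**
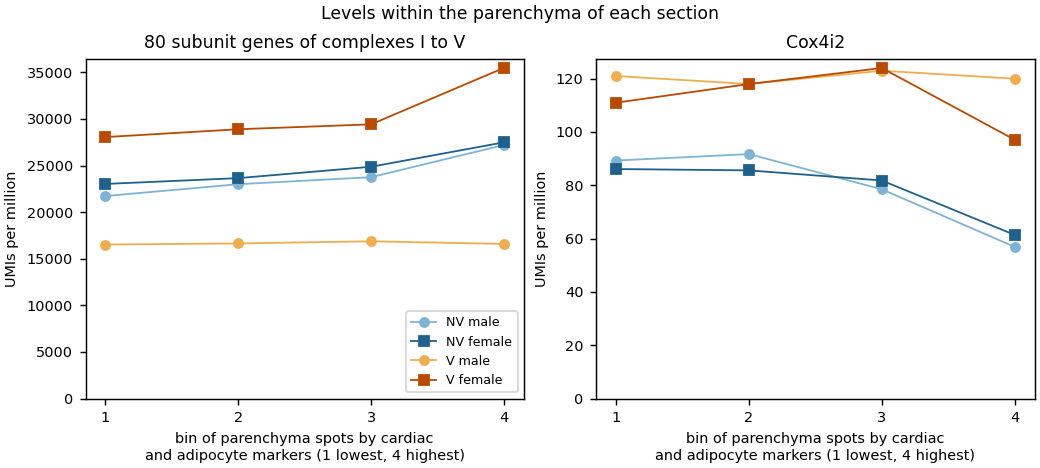
Level in CPM (linear axes from 0) of the 80 subunit genes together (left) and of Cox4i2 (right) in 4 bins of the parenchyma spots of each section, ordered from the lowest to the highest cardiac muscle and adipocyte marker share. The bins are ranks within a section and are not matched between sections in marker level. The subunit genes are lowest in the V male (16526 to 16873) and highest in the V female (28056 to 35479) in every bin, and Cox4i2 is lower in the highest bin than in the lowest for the NV male (56.9 against 89.3).

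In cardiac muscle rich spots, where 1 V section was set against 2 NV sections, the complexes were alike in level. Complexes I to V together held 73314 ± 8322 CPM in NV (SD, n = 2 sections) and 71530 in the V female, a value inside the NV range of 67429 to 79199. Of the 92 genes 1 was called and higher in V (edgeR), against 1.61% of the 11678 genes tested, and the median was -0.02. The V arm is 1 section, so the NV sections alone supply the spread and the p value compares these sections, not the groups. The V section is from a female and the NV sections are from a male and a female, so sex is not balanced either. That gene, Cox6a1, held 297 and 430 CPM in NV (male, female) and 756 CPM for the V female, which was above both (log2 1.03, SE 0.268, adjusted p = 0.0111 by edgeR). DESeq2 did not call it (adjusted p = 0.367), and with zones from clusters it was at 0.26 and not called. Adipocyte markers in these spots held 875 and 1783 CPM in NV and 2251 in V, and 3 of the 12 were called higher in V. Among them Ucp1, the uncoupling protein of thermogenic fat, held 0 and 0.631 CPM in NV and 453 for the V female. Their part in the result was not tested. The remaining genes at the ends were Sdhaf3 (0.88), Cox8a (0.56), Ndufaf1 (0.53) and Ndufa4l2 (0.52) at the top and Atp5g3 (-0.35), Atp5j (-0.29), Atp5mpl (-0.27), Atp5g1 (-0.27) and Cox7c (-0.26) at the bottom, none of them called.

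In adipocyte rich spots only the 2 females could be set side by side, 1 section each, so no test was made and each sum carries an exact 95% Poisson interval for counting error only. Complexes I to V held 49597 CPM (49218 to 49978) for the NV female and 85967 CPM (85763 to 86172) for the V female, a ratio of 1.73. The ratio was 2.06 for complex III, 1.82 for IV, 1.77 for I, 1.74 for II, 1.49 for V and 1.24 for the assembly factors. Of the 92 genes 87 were higher in the V female, against 3150 of 10635 genes with at least 50 UMIs over both sections. The median log2 ratio was 0.77 over the 92 genes and -0.25 over those 10635. Of the 92 genes, 18 were more than 2 times as high, against 2.97% of the 10635. Ndufv1 had the largest ratio, with 194 CPM for NV and 547 for V, followed by Uqcrc1 with 310 and 816 CPM. Cox4i2 went from 11.4 to 29.4 CPM, while Atp5g1 had the lowest ratio, with 400 CPM for NV and 226 for V.

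The fat captured in the 2 females was not of the same kind by its markers. Ucp1 held 3.78 CPM for NV and 2627 for V, and Cox8b, an isoform of brown fat and heart, held 891 and 3227 CPM. The 12 adipocyte markers together held 17334 CPM for NV and 11736 for V, and the cardiac muscle markers 7456 and 4637. Exposure, animal and the fat depot under the spots cannot be told apart here. In other hilar spots, where the NV female had 27 spots and 283049 UMIs, the ratio of the V over the NV female was 1.31. There 82 of the 92 genes were higher, with a median log2 ratio of 0.43, against 4653 of 9387 genes and a median of -0.01.

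The other genes of the pathway, taken from lists, moved with the respiratory chain genes between zones. Some lists also had the V male lowest and the V female highest in parenchyma. Tricarboxylic acid cycle genes held 1572 and 1578 CPM in NV (male, female) and 1150 and 2206 CPM in V. Others did not, such as the mitochondrially encoded genes, at 78938 and 54477 CPM in NV and 50972 and 61225 CPM in V. All 12 genes of the tricarboxylic acid cycle rose in cardiac muscle rich spots (median log2 1.61) and in adipocyte rich spots (1.88), and citrate synthase (Cs) by 1.54 and 2.08. All 13 mitochondrially encoded genes rose in both, with medians of 2.30 and 1.58. Of 7 electron carriers and related enzymes, such as Cyc1 and Cycs, 5 rose in cardiac muscle rich and 7 in adipocyte rich spots, and of 19 assembly factors of complexes III and IV 15 and 18 rose. Among 12 carriers and mitochondrial membrane proteins 11 and 12 rose, and Slc25a4, the adenine nucleotide carrier of heart and muscle, rose by 3.18 in cardiac muscle rich and by 0.70 in adipocyte rich spots. Cytosolic ribosomal protein genes, another group of short abundant transcripts, gave 7 higher and 1 lower of 80 in cardiac muscle rich spots and 3 higher in adipocyte rich spots, with medians of 0.18 and 0.03. The list values rest on TMM scaling. In CPM the ribosomal sum was 56576, 66460 and 57314 in cardiac muscle rich spots (NV male, NV female, V female), below 71414, 78661 and 78017 in parenchyma. Cox16, counted as higher, held 45.2, 47.3 and 51.8 CPM there, below 47.1, 54.7 and 55.9 in parenchyma. The sums of the other lists in this paragraph were higher in CPM too.

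Of 10 regulators of respiratory genes, 5 rose and 1 fell in cardiac muscle rich spots and 6 rose in adipocyte rich spots. Of all genes tested, 20.3% were called higher and 18.7% lower in the first zone, and 17.8% higher in the second. These calls use TMM scaling. In CPM the sum of the regulators was 279 and 247 in parenchyma (NV female, V female), 284 and 283 in cardiac muscle rich and 238 and 266 in adipocyte rich spots. For the NV male it was 285 in parenchyma and 313 in cardiac muscle rich spots. Perm1 and the coactivator Ppargc1a rose by log2 3.23 and 2.63 in cardiac muscle rich spots and by 1.14 and 1.86 in adipocyte rich spots. From parenchyma to adipocyte rich spots Perm1 rose in CPM for the V female only (6.05 to 10.4, 82 UMIs). For the NV female it went from 4.25 to 3.03 CPM (4 UMIs). Yy1 fell by 0.40 on the log2 scale in cardiac muscle rich spots, and Nrf1 was at -0.43 (adjusted p = 0.0904 by edgeR) there. Of the 3 uncoupling proteins, Ucp1 and Ucp3 were called higher in both zones, and Ucp2 fell by 0.73 in adipocyte rich spots. From parenchyma to cardiac muscle rich spots Ucp3 rose in CPM for the NV male only (2.77 to 10.4, 20 UMIs). It did not rise for the NV female (4.25 to 3.79, 6 UMIs) or the V female (6.37 to 6.07, 26 UMIs). Ucp1 is itself among the markers that define the adipocyte rich zone, so its rise in that zone follows from how the spots were chosen. The rise of Ucp1 rests on the V female, since no NV zone held more than 5 of its UMIs. Between V and NV in parenchyma 0 genes of any of these lists were called by edgeR, as were 0 of all 14348 genes tested. Mitochondrially encoded UMIs per nuclear subunit UMI were 3.38 and 2.23 in NV parenchyma (male, female) and 3.05 in the parenchyma of the V male, and the V female was lowest, so the groups overlapped. The same ratio was 3.32 and 2.50 (NV) and 2.92 (V) in cardiac muscle rich spots, and 2.19 (NV) and 1.86 (V) in adipocyte rich spots.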

How the data were processed

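Lung sections of 4 mice were profiled with 10x Visium. The authors deposited raw UMI counts for 32285 genes and the spots under tissue, made with Space Ranger on the 10x mm10 reference, and per the labels Seurat 4.0.3 was used downstream. Totals per section ranged from 6957392 to 34308556 UMIs. For the parenchyma sums of complexes I to V, counting error was small beside the spread between sections. The sections share 1411 of 2583 barcodes, which are fixed positions on the slides. The counts were summed per section and zone, for zones with at least 20 spots, since spots of 1 section are not replicates. Sums were tested with edgeR 4.0.16 (TMM, filterByExpr, glmQLFit and glmQLFTest) in R 4.3.3. The V against NV fit held the group only, and the zone fit held section and zone over 10 sums without the V male. Genes were called at an adjusted p under 0.05 and an absolute log2 fold change above 0.25, the fold threshold of the study. The steps were tested on simulated data. DESeq2 1.42.0, no low count filter, Leiden clusters (scanpy 1.11.5), other zone limits and leaving out each section were alternatives. Adipocyte rich and other hilar spots, with 1 section in each group, gave no test of V against NV. Sections have no replicate numbers in the labels, and the numbers used here, given in accession order, coincide with sex. In parenchyma, same-numbered sections correlated at 0.08 in their deviations from the group means over 14348 genes. The genes, lists, zones and tests were chosen with earlier results of these data known, as were the alternatives marked as chosen after the data were seen. The genes named are the 5 highest and 5 lowest in each comparison, a fixed list of core and isoform genes, and the ends of each pathway list, and 1 gene of the fixed list is not reported here by name. Genes cited for isoform shares, for not overlapping between groups or for being the only ones called were named after their values were seen.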

Additional observations from a re-analysis of the deposited data

Results flagged for a closer look

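Within parenchyma, V stood below NV in males and above NV in females in each of complexes I to V and for the assembly factors. The opposite directions were what marked these values, and the difference between the sexes was not tested, since each sex and group holds 1 section. In complex I the log2 ratio of V over NV was -0.38 in males and 0.38 in females, and in complex II -0.40 and 0.36. In complex III it was -0.62 and 0.50, in complex IV -0.41 and 0.32, and in complex V -0.61 and 0.22. For the assembly factors it was -0.01 in males and 0.12 in females, where the value in males is near 0.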

How the results depend on the processing

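Results are limited by 2 sections in each group. In the other hilar spots of the NV female, with 283049 UMIs, low counts limit them as well. Between V and NV in parenchyma the count of genes called was 0 in every alternative but the omission of single sections (0 to 33, with 7 without the V male and 33 without the V female), and the replicate block, which coincides with sex, also gave 0 with a median of -0.03. The median ranged from -0.47 to 0.41 when 1 section was left out, and the log2 ratio of V over NV from -0.42 to 0.43 in complex I, -0.46 to 0.42 in II, -0.65 to 0.53 in III, -0.46 to 0.38 in IV, -0.60 to 0.22 in V and -0.09 to 0.21 for the assembly factors. Single genes then ranged from -0.06 to 0.74 for Cox6a1, -0.30 to 0.75 for Ndufv1, -0.54 to 0.88 for Uqcrc1 and -0.91 to 0.18 for Ndufs1, the lower value without the V female and the higher without the V male. In cardiac muscle rich spots V against NV gave 0 called genes with DESeq2 and with cluster zones, and Atp5g1 was at 0.00042 with zones at 4 times. Against parenchyma, leaving out sections gave 87 to 89 called genes in cardiac muscle rich, 81 to 91 in adipocyte rich and 1 to 5 in other hilar spots (1 without the V female, 5 without the NV female). Zones at 4 times gave 87 in other hilar spots, where Cox7a2l turned to 0.29 and Ndufaf1 to 0.67, and Ndufaf6 ranged from -0.18 (without the V female) to 0.59 when 1 section was left out. In cardiac muscle rich spots total UMI scaling turned Cox6a1 to -0.22, Ndufa4l2 to -0.51 and Sdhaf2 to -0.14, and Ndufa4l2 was at -0.02 without the low count filter, -0.21 with cluster zones and -0.02 to 0.07 when 1 section was left out, -0.02 without the V female. In adipocyte rich spots total UMI scaling turned Cox7a2l to -0.06. Adipocyte rich against cardiac muscle rich spots gave 5 called genes with cluster zones, 46 with zones at 4 times and 6 to 66 when sections were left out, and Sdhd ranged there from -0.14 (without the V female) to 1.04. The causes were not tested. Of 102 values for named genes, 89 changed direction under no alternative. V against NV counts in adipocyte rich and other hilar spots, the block and the omission of sections in the cardiac muscle rich comparison, and other hilar spots by clusters were not run.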

Other observations

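The balance between complexes differed from the balance of their levels. ATP synthase genes (complex V) stood at 1.31 and 1.22 times complex I in NV parenchyma (male, female) and at 1.12 and 1.09 times in V parenchyma (UMIs over UMIs), so both V sections were below both NV sections although their total levels lay on either side. Complex IV had the same order, at 0.960 and 0.974 times complex I in NV and 0.940 and 0.934 in V parenchyma (male, female). For complexes II and III the groups overlapped. These orders were not tested. In cardiac muscle rich spots the ratio of complex V to complex I was 1.29 and 1.26 in NV (male, female) and 1.15 for the V female. In adipocyte rich spots it was 1.08 for NV and 0.910 for V, the lowest ratio of any section and zone. Complex III made up 13.6% of the subunit UMIs in the adipocyte rich spots of the V female and 11.4% in those of the other female. It made up 9.23% to 11.5% in parenchyma, a range that holds the 11.4%. Its share was 10.9% to 11.9% in cardiac muscle rich spots, and 10.8% (NV female) and 12.0% (V female) in other hilar spots.

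The assembly factors followed the subunits only in part. For each 100 UMIs of subunit genes, the assembly factors had between 1.12 and 1.67 in parenchyma, with the V male highest, and between 0.581 and 0.660 in cardiac muscle rich spots. In adipocyte rich spots the values were 0.816 for NV and 0.583 for V.

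The glycerol phosphate dehydrogenase gene Gpd2, which feeds electrons to ubiquinone from the cytosol, was higher in adipocyte rich spots than in parenchyma (log2 2.16, adjusted p = 2.76e-07 by edgeR) and was not called in cardiac muscle rich spots (0.26, adjusted p = 0.279 by edgeR). In cardiac muscle rich spots the 1 V section was higher than the 2 NV sections, at 75.6 CPM against 17.1 and 24.6 (log2 1.84). The V section is from a female and the NV sections are from a male and a female, so sex is not balanced. With 1 V section this compares sections, not groups. Adipocyte markers there were also higher in V (2251 CPM against 875 and 1783), and their part in the result was not tested.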
